A study of Homo sapiens with 12 samples.

Results

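The calcineurin and NFAT pathway is represented here by 10 human genes: the catalytic subunits of calcineurin PPP3CA, PPP3CB and PPP3CC, the regulatory subunit PPP3R1, the regulators RCAN1 and RCAN3, and the transcription factors NFATC1, NFATC2, NFATC3 and NFATC4. All probe sets that the platform annotation assigns to exactly 1 of these genes were taken, which gave 36 of the 54675 probe sets in the table. They were measured in HK-2, an immortalized cell line from the proximal tubule of the human kidney, grown with EGF, hydrocortisone, insulin and transferrin. One day after seeding, near confluency, dishes received CsA (taken to be cyclosporin A) or the control vehicle for 12 h or 48 h, with 3 arrays labelled as biological replicates in each of the 4 groups. The sources used here name neither the CsA dose nor the vehicle, and nothing in the labels says whether replicates were separate passages, so p-values measure the spread between these arrays, which may be technical. As a single cell line in culture, HK-2 models tubule cells without the other cells of a kidney.

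Calcineurin is a phosphatase switched on by calcium and calmodulin, built from a catalytic A subunit and a regulatory B subunit. It removes phosphates from the NFATC factors, which then enter the nucleus, and NFAT kinases send them back. CsA in complex with a cyclophilin blocks the phosphatase, which is the basis of its use as an immunosuppressant and has long been studied in its kidney toxicity. RCAN proteins bind calcineurin and restrain it, and an internal promoter of RCAN1 is a textbook NFAT target that makes RCAN1 a common readout of calcineurin activity. All values below are RNA levels and say nothing of phosphatase activity.

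RCAN1 has several annotated starts, and the sequence around 2 of them is shown because RCAN1 is the readout gene of the pathway and changed most over time. RefSeq (GRCh38.p14) windows from 250 bases before to 50 bases after a start were available for 7 of the 10 genes, and RCAN1 had 6 of the 18 windows. Capitals mark the NFAT core, searched as GGAAA on both strands. The window at the most upstream start, chr21:34615064-34615363 on the minus strand, held 0 matches, and the window at a start 88.3 kb further into the gene, chr21:34526773-34527072 on the minus strand, held 5, of which 4 lie before the start and 1 after it.
RCAN1 most upstream start: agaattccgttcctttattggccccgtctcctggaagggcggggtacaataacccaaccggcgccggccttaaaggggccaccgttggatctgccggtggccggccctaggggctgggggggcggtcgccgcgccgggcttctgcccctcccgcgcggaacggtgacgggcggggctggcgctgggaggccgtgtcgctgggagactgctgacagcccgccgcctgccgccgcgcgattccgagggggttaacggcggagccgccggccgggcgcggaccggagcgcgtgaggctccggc
RCAN1 internal start: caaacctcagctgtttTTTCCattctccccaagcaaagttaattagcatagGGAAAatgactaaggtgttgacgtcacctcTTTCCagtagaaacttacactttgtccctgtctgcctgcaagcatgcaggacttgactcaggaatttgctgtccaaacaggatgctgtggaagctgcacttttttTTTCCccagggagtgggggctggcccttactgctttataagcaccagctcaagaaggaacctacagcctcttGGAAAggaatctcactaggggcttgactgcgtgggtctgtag
At least 5 matches were found in 0.74% of the 35116 promoter windows of this length, and at least 1 in 61.2%. The same internal window held 1 match to the AP-1 motif TGANTCA, which overlapped no NFAT core and was present in 7.71% of windows. The other RCAN1 windows held 0 or 1 NFAT cores, and no other window of the group held more than 3. The internal window was 48.0% GC and the most upstream one 74.0%, and the shares over all windows are not matched for GC. A match is a description of letters, and the annotation does not say which start a probe set reports, so the values below cannot be split by start.

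Of the 36 probe sets, 19 from 8 genes had a log2 value above 4 on at least 3 of the 12 arrays and were tested. A probe set under 4 is described as near background. All 4 probe sets of NFATC2, the factor best known from T cells, lay between 1.94 and 2.34 on every array. The 3 probe sets of RCAN3 lay between 2.31 and 3.06 on all arrays except replicate 3 of CsA at 48 h, where one of them read 4.61. For NFATC4 only 213345_at was tested, and it was dim, with a mean of 4.19 over all arrays. The other untested probe sets were 3 of PPP3CC (at most 2.53), 1 of PPP3R1 (3.84 to 5.46), 1 of RCAN1 (at most 1.94), 2 of NFATC1 (at most 3.50), 1 of NFATC3 (at most 2.43) and 2 of NFATC4 (at most 1.87). Levels of different probe sets cannot be set against each other on these arrays, so each is compared only with itself.

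Between 42.2% and 42.8% of probe sets lay above 4 on each array, and 1 array stood apart in its hybridization controls. On replicate 3 of CsA at 48 h the hybridization controls had a median of 7.38 (log2), where the other arrays had 9.89 to 11.42, and this array gave the highest of the 12 values in 24.3% of the 20625 probe sets tested. It was also the only array above 4 for 142 probe sets that were near background on all other arrays, against 12 to 75 for any other array. Poly-A controls were low on replicate 1 at 48 h, at 4.13 with CsA and 3.78 without, and lay at 8.26 to 9.99 on all other arrays. The 3' minus 5' difference of ACTB (log2), a measure of RNA quality, was 1.33 on replicate 1 of the 48 h controls. It was 1.22 on replicate 3 of CsA at 48 h and 0.73 to 0.98 on all other arrays. The line's identity was checked by markers: 5 of 6 epithelial genes passed the filter, as did 4 of 13 matched proximal tubule genes (PAX8, MME, PDZK1 and CDH6), while LRP2, CUBN, AQP1 and SLC34A1 were near background. None of 8 leukocyte and 5 endothelial markers passed, while 4 of 6 fibroblast and mesangium, 2 of 4 podocyte and 3 of 6 distal nephron markers did. The median SD within a group over the tested probe sets was 0.12 in both 12 h groups, 0.17 in controls at 48 h and 0.22 with CsA at 48 h. Each CsA comparison was fitted on the arrays of its own time.

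At 12 h the catalytic subunit genes lay close to their controls. PPP3CA, the most widely expressed A subunit, read 11.90, 11.97 and 11.81 in the controls and 11.83, 11.95 and 11.69 with CsA on 202429_s_at, its brightest probe set. The groups overlapped, and the log2 change was -0.07 (95% interval -0.29 to 0.14, adjusted p by limma = 0.940). For PPP3CB, the second A subunit, the log2 change was -0.03 on 202432_at and 0.18 on 209817_at. The latter read 9.48, 9.72 and 9.62 in the controls and 9.82, 9.79 and 9.76 with CsA, so every CsA array was above every control (95% interval -0.01 to 0.37, adjusted p by limma = 0.782). PPP3CC had log2 changes of 0.31 and 0.02 on its 2 tested probe sets, and PPP3R1, the B subunit, of -0.14, each with overlapping groups.

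RCAN1 and the NFAT factors likewise gave no call at 12 h. RCAN1 read 8.95, 8.74 and 8.51 in the controls and 8.84, 8.55 and 8.62 with CsA on 208370_s_at, with a log2 change of -0.06 (95% interval -0.39 to 0.26, adjusted p by limma = 0.970). NFATC1, the factor with its own NFAT-driven promoter in lymphocytes, had the smallest p of the group on 211105_s_at. It read 6.51, 6.63 and 6.48 in the controls and 6.69, 6.97 and 6.78 with CsA, all above the controls, for a log2 change of 0.27 (SE 0.09, limma unadjusted p = 0.0257, adjusted p = 0.694). The neighbouring 210162_s_at of NFATC1 also had separated groups, with a log2 change of 0.31 (SE 0.14) that was 0.16 without replicate 2 of CsA. NFATC3 ranged from -0.13 to 0.49 over 5 probe sets and NFATC4 stood at -0.06.

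Over the 19 probe sets the median log2 change at 12 h was -0.04, beside -0.0029 over all 20625 tested. None was called at a limma adjusted p under 0.05, and 0% of all probe sets were (0 of 20625, with 1341, or 6.50%, at an unadjusted p under 0.05). Of the group 1 had an unadjusted p under 0.05. In 3 probe sets all CsA arrays lay above the controls, beside 6.20% of all probe sets, and in 0 did all lie below, beside 5.78%.

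**Figure D1:**
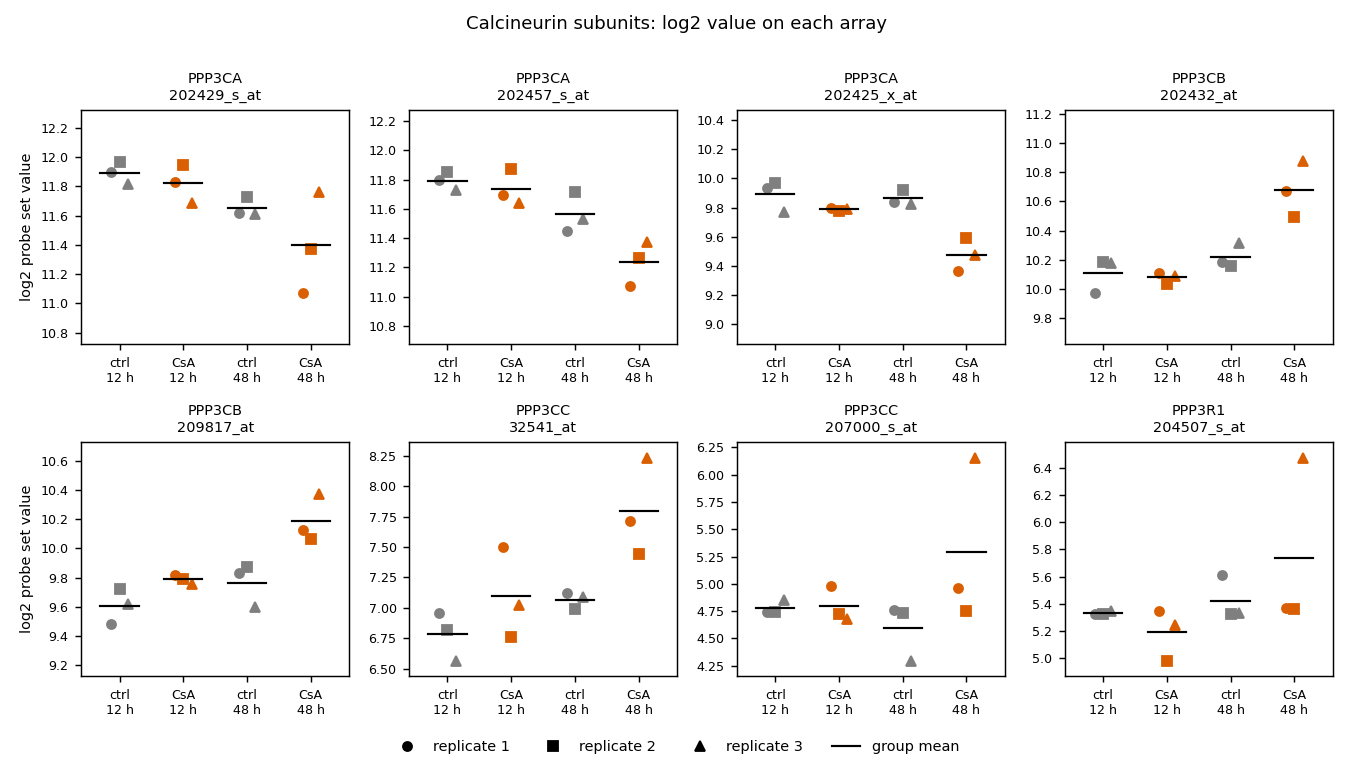
The log2 value of the 8 tested calcineurin subunit probe sets on each array (vertical axis, a separate range in each panel), by group, with replicates as symbols and the group mean as a line. At 48 h every CsA array lay below the controls for PPP3CA on 202425_x_at and 202457_s_at and above them for PPP3CB, and replicate 3 of CsA at 48 h was the highest array for PPP3CB, PPP3CC and PPP3R1.

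At 48 h the catalytic subunits had changes of opposite sign, none past the threshold in the 48 h arrays. PPP3CA on 202425_x_at read 9.84, 9.92 and 9.83 in the controls and 9.36, 9.59 and 9.47 with CsA. Every CsA array lay below every control, and the log2 change was -0.39 (SE 0.11, 95% interval -0.65 to -0.12, adjusted p by limma = 0.149). The suffix of this probe set marks possible matches to related sequences. On 202457_s_at the controls read 11.45, 11.72 and 11.53 and the CsA arrays 11.08, 11.27 and 11.37, again without overlap, with a log2 change of -0.33 (SE 0.13). The third probe set, 202429_s_at, read 11.62, 11.73 and 11.61 in the controls and 11.07, 11.37 and 11.76 with CsA. Here replicate 3 of CsA lay above all controls, and the log2 change of -0.25 (SE 0.19) became -0.43 without that array.

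PPP3CB had positive changes on both of its probe sets. On 202432_at the controls read 10.18, 10.16 and 10.32 and the CsA arrays 10.67, 10.49 and 10.87, a 1.38-fold difference (log2 change 0.46, SE 0.13, 95% interval 0.13 to 0.79, adjusted p by limma = 0.155). On 209817_at they read 9.83, 9.87 and 9.60 against 10.12, 10.06 and 10.37 (log2 change 0.42, SE 0.14). Neither pair of groups overlapped.

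PPP3CC, the A subunit first described in testis, read 7.12, 6.99 and 7.09 in the controls and 7.71, 7.44 and 8.24 with CsA on 32541_at. The groups did not overlap, and the log2 change was 0.73 (SE 0.21, 95% interval 0.22 to 1.24, adjusted p by limma = 0.153), or 0.51 without replicate 3 of CsA. Its dimmer probe set 207000_s_at read 4.76, 4.73 and 4.29 against 4.96, 4.75 and 6.16, so its log2 change of 0.70 (SE 0.38) was 0.26 without that array. PPP3R1 on 204507_s_at read 5.61, 5.32 and 5.33 against 5.37, 5.36 and 6.48, with a log2 change of 0.31 (SE 0.32) that was -0.06 without replicate 3. Its untested probe set, 204506_at, showed the same single high array, with 5.46 there and 3.84 to 4.01 on the other 11 arrays. The part of that array's low hybridization signal in these values was not tested.

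RCAN1 had a negative change with CsA at 48 h on 208370_s_at, where the controls read 9.97, 10.34 and 10.11 and the CsA arrays 9.58, 9.85 and 9.57. The groups did not overlap, and the log2 change was -0.47 (SE 0.15, 95% interval -0.83 to -0.11, adjusted p by limma = 0.170), a level 1.39-fold lower. It stayed between -0.56 and -0.37 with any single 48 h array left out. The second probe set, 215253_s_at, read 6.70, 8.33 and 8.25 in the controls and 7.62, 7.61 and 5.63 with CsA. Its groups overlapped, and replicate 1 of the controls and replicate 3 of CsA lay far below the others of their groups, so its log2 change of -0.81 had an SE of 0.69 and was -0.15 without replicate 3 of CsA. Those low arrays also had the highest ACTB 3' minus 5' differences, and the part of RNA quality in these values was not tested.

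The NFAT factors showed no separated groups at 48 h. NFATC3, the member with the most tested probe sets, ranged from -0.30 on 210555_s_at (SE 0.15) to 0.23 on 225137_at (SE 0.37), and the latter was -0.19 without replicate 3 of CsA. On 210555_s_at the controls read 9.18, 9.17 and 8.93 and the CsA arrays 8.60, 8.74 and 9.02. Its log2 change was -0.42 without replicate 3 of CsA, the only CsA array within the control range. NFATC1 ranged from -0.08 to 0.13 over 3 probe sets. Without that array 210162_s_at turned from 0.13 to -0.15, and 211105_s_at and 210161_at went from -0.08 to -0.24 and -0.13. NFATC3 on 207416_s_at turned from -0.12 to 0.09. NFATC4 read 4.33, 4.03 and 4.15 against 4.10, 4.18 and 5.06, and its log2 change of 0.28 (SE 0.27) was -0.03 without replicate 3 of CsA.

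**Figure D2:**
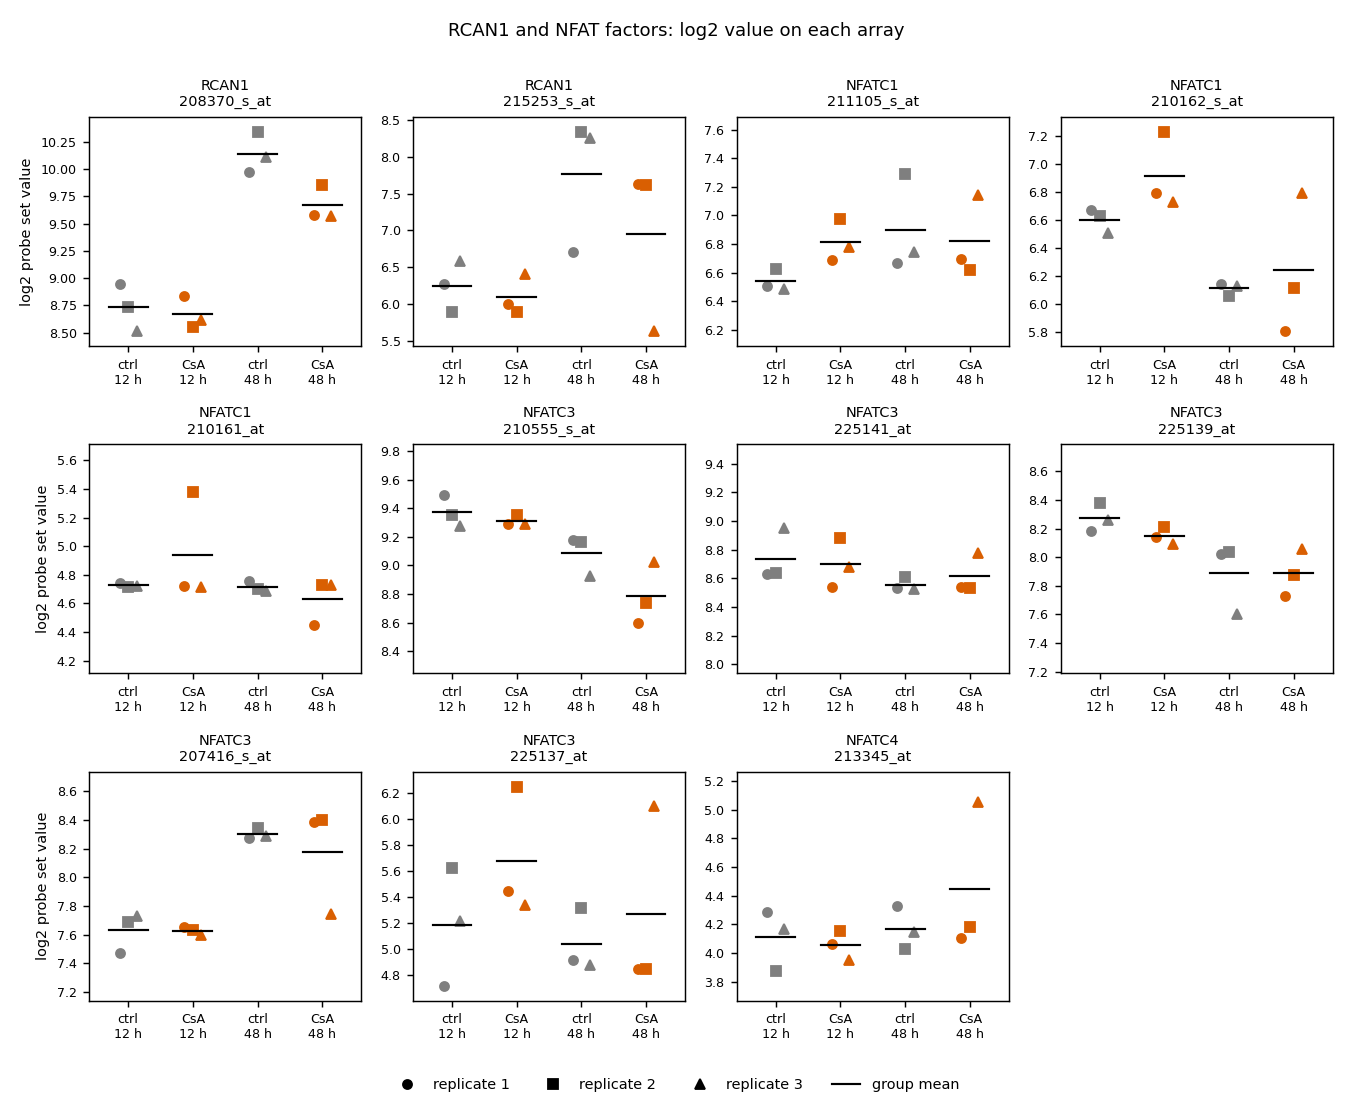
The log2 value of the 11 tested probe sets of RCAN1, NFATC1, NFATC3 and NFATC4 on each array (vertical axis, a separate range in each panel), by group, with replicates as symbols and the group mean as a line. RCAN1 on 208370_s_at was higher at 48 h than at 12 h in both controls and CsA, and NFATC3 on 207416_s_at went up with time in controls where 225139_at went down.

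The median log2 change of the 19 probe sets at 48 h was 0.0007, beside -0.011 over all tested, and their median absolute change was 0.30, beside 0.22. Their spread differed too, with a median SE of 0.19, beside 0.17. The median SD of the 19 was 0.28 with CsA at 48 h, beside 0.22, and 0.14 in the 48 h controls, beside 0.17. None was called by limma in the 48 h arrays, where 0.0388% of all probe sets were (8 of 20625). This fit recovered fewer true changes on simulated data than one with a spread shared by all arrays, so a count of 0 is no sign that levels were equal. At an unadjusted p under 0.05, 3 were higher (both of PPP3CB and 1 of PPP3CC) and 3 lower (2 of PPP3CA and 1 of RCAN1), beside 7.63% and 11.9% of all probe sets, or 19.5% in either direction. The same 6 probe sets were those whose groups did not overlap, 3 above and 3 below, beside 12.5% and 15.0% of all.

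A fit in which all 12 arrays share 1 estimate of the spread called 3 of the 19 at 48 h, beside 12.7% of all probe sets: PPP3CA on 202425_x_at lower (adjusted p by limma = 0.0196) and PPP3CB higher on 202432_at (0.0232) and 209817_at (0.0354). Over all alternatives the adjusted p ran from 0.0196 to 0.601 for the first, from 0.0232 to 0.603 for the second and from 0.0354 to 0.598 for the third. On simulated data 43.5% of the calls at 48 h were false with the shared spread, against 4.44% with the fit within the 48 h arrays. The simulation changed 200 of 20625 probe sets. A share of false calls depends on that number, so these shares do not carry over to the calls here. Weights estimated for each array called 2 of the 19, beside 1998 of all 20625 probe sets. These were PPP3CA on 202425_x_at and PPP3CC on 32541_at, and the adjusted p of the latter ran from 0.0422 to 0.598 over all alternatives. With bulk RNA from a dish, a smaller share of cells holding an RNA and less of it in each cell cannot be told apart. The sums of some marker lists moved at the same time. The summed level of the 13 proximal tubule markers was 13.16 to 13.31 (log2) with CsA at 48 h and 13.66 to 13.93 in the controls. That of the 6 fibroblast and mesangium markers was 9.27 to 10.02 with CsA and 10.43 to 10.81 in the controls. The distal nephron sum was 6.77 to 6.83 with CsA and 7.00 to 7.39 in the controls, while the podocyte sum lay the other way, at 10.69 to 11.08 and 10.33 to 10.66. Each sum leans on its brightest probe sets. Of the tested distal nephron genes 2 had positive changes at 48 h and 1 a negative one, and of the podocyte genes 1 each. Of the tested fibroblast and mesangium genes 1 was positive and 3 were negative. The epithelial sum overlapped, at 16.05 to 16.31 with CsA and 16.13 to 16.19 in the controls, as did the leukocyte and endothelial sums. Within the proximal tubule list CDH6 had a log2 change of -1.16 and PDZK1 of -1.02, against 1.09 for PAX8 and -0.05 for MME, none past the adjusted threshold within the 48 h arrays. Their part in these differences was not tested.

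**Figure D3:**
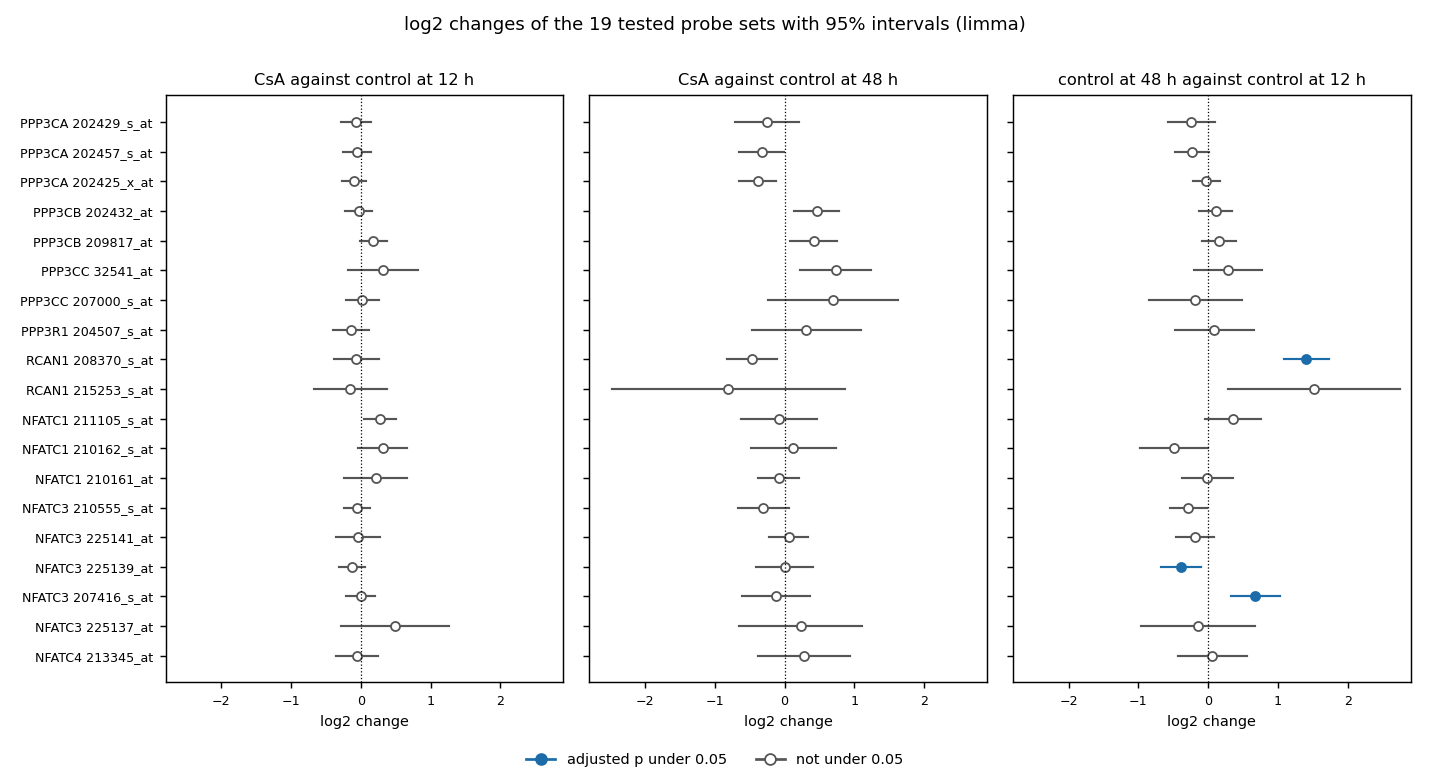
The log2 change of each of the 19 tested probe sets (points) with its 95% interval (lines) in 3 panels: the CsA effect at 12 h, the CsA effect at 48 h, and controls at 48 h relative to 12 h; filled points passed a limma adjusted p of 0.05. The CsA panels hold 0 filled points, and the time panel 3, of which RCAN1 on 208370_s_at has a log2 change of 1.41.

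Over time in culture RCAN1 had the largest called change of the 10 genes. In controls RCAN1 on 208370_s_at rose from 8.73 ± 0.22 (SD, n = 3) at 12 h to 10.14 ± 0.19 at 48 h, a 2.65-fold rise (log2 change 1.41, SE 0.14, adjusted p by limma = 5.03e-05). The CsA groups stood at 8.67 ± 0.15 and 9.67 ± 0.16. In order of level, both 12 h groups overlapped, every CsA array at 48 h lay above them, and every control array at 48 h above those, although the step between the 48 h groups did not pass its test. The second RCAN1 probe set, 215253_s_at, had a log2 change of 1.52 between controls (SE 0.55, adjusted p by limma = 0.0521) and did not pass. Without replicate 1 of the 48 h controls it was 2.05 (adjusted p = 0.0144), over alternatives with an adjusted p of 0.00697 to 0.161.

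NFATC3 gave calls of opposite sign over time. On 207416_s_at the controls read 7.47, 7.69 and 7.73 at 12 h and 8.28, 8.34 and 8.29 at 48 h, a rise of 0.67 (SE 0.16, adjusted p by limma = 0.00698). On 225139_at they read 8.18, 8.38 and 8.26 and then 8.02, 8.04 and 7.60, a log2 change of -0.39 (SE 0.13, adjusted p by limma = 0.0394). This call was lost without any single 12 h control (log2 change -0.43, -0.34 and -0.39 without replicates 1, 2 and 3) and without replicate 3 of the 48 h controls (-0.24, adjusted p = 0.131), and the adjusted p ran from 0.0138 to 0.131 over all alternatives. Other probe sets of NFATC3 with separated groups, 210555_s_at and 225141_at, had log2 changes of -0.28 and -0.18. Over the 12 arrays 207416_s_at correlated at -0.80 to -0.49 with the other 4 tested probe sets of NFATC3, which correlated at 0.33 to 0.82 with each other. These correlations share the arrays and the time split. With CsA at 48 h, 207416_s_at read 8.39 and 8.40 on replicates 1 and 2 and 7.74 on replicate 3, so the array that stood apart lay just above the 12 h controls.

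Of the 19 probe sets 3 passed over time in controls, beside 38.5% of all probe sets: 2 rose, beside 20.5%, and 1 fell, beside 18.0%. Groups did not overlap for 5 that were higher and 6 that were lower at 48 h, beside 28.4% and 26.9%. Among them PPP3CA had log2 changes of -0.24 and -0.23 on its bright probe sets (adjusted p by limma = 0.236 and 0.123), and NFATC1 of 0.36 on 211105_s_at and -0.49 on 210162_s_at (adjusted p = 0.142 and 0.101). The test of whether the CsA effect differed between 48 h and 12 h called none of the 19, beside 0.320% of all probe sets. At an unadjusted p under 0.05 there were 2 (15.5% of all): PPP3CB on 202432_at, with a difference of 0.49 (SE 0.15, adjusted p by limma = 0.176), and PPP3CA on 202425_x_at, with -0.29 (SE 0.12, adjusted p = 0.301). For RCAN1 on 208370_s_at the difference was -0.41 (95% interval -0.86 to 0.04).

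The genes whose brightest probe set followed RCAN1 most closely over the 12 arrays, among 9932 compared, were CERS2, a ceramide synthase (Pearson r = 0.98), PLTP, which transfers phospholipids between lipoproteins (0.98), SNX30 (0.97), LINC00674 (0.97) and FAM8A1 (0.97). Those that ran most against it were PRKAG2, a subunit of AMP-activated kinase (-0.98), CACYBP (-0.98), NTAN1 (-0.97), TBCB (-0.97) and DDX39A (-0.97). All arrays share the step from 12 h to 48 h. The genes were also picked over these same arrays, so the r within a time below is no separate check. Within the 6 arrays at 48 h the closest genes had r of 0.84 to 0.98 and the opposed ones -0.97 to -0.90. Within the 6 at 12 h these ranges were 0.40 to 0.77 and -0.54 to 0.10, with NTAN1 at -0.13 and TBCB, at 0.10, of the other sign. PPP3CA was taken for its p at 48 h on 202425_x_at (limma unadjusted p = 0.0121), but the correlations use its brightest probe set, 202429_s_at (p = 0.232). For PPP3CA on 202429_s_at the closest genes were RBM12B (0.97), SLC25A10 (0.96), UNC5CL, KNOP1 and TGFBR1 (each 0.95), and those that ran most against it DTWD2 (-0.96), MRPL48 (-0.94), PCID2, MFN1 (each -0.93) and MYDGF (-0.92). For the closest genes of PPP3CA r was 0.94 to 0.99 within the 48 h arrays and 0.25 (KNOP1) to 0.98 (RBM12B) within the 12 h arrays, and for the opposed genes -0.96 to -0.90 and -0.88 to -0.51.

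The rest of the pathway was counted from 9 lists with 107 genes, of which 66 were tested by their brightest probe set. None was called in either CsA comparison by limma within its time, beside 0% at 12 h and 0.0179% at 48 h of all 11154 genes by their brightest probe set. At an unadjusted p under 0.05, 6 were higher and 0 lower at 12 h, beside 3.79% and 3.05% of all genes. At 48 h 7 were higher and 6 lower, beside 8.21% and 12.2%. The fit with a shared spread called 10 of the 66 at 48 h, beside 13.6% of all genes. Between the controls of both times 11 rose and 11 fell by limma, beside 23.4% and 19.7%. Calmodulin genes had no probe set with 1 gene name. NFAT target genes of lymphocytes were mostly near background: of 16 on the array only CXCL8, a chemokine, was tested, with log2 changes of 0.38 (SE 0.12) at 12 h and -0.25 at 48 h. The untested 15, IL2, IFNG and TNF among them, reached at most 4.21 on any array.

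Among regulators and anchors of calcineurin 7 of 12 were tested, and RCAN2, PPP3R2, CHP2, MYOZ1 and MYOZ2 were near background. CABIN1, which binds and restrains calcineurin, had the smallest p of that list at 48 h, with a log2 change of -0.53 (SE 0.19, adjusted p by limma = 0.216), and AKAP1, a mitochondrial anchor, at 12 h, with -0.07. Of 10 tested NFAT kinases GSK3B had -0.26 (SE 0.14) at 48 h and CSNK1E -0.09 at 12 h. Of 7 tested scaffolds and transport factors HOMER1, whose family competes with calcineurin for NFAT, had the smallest p at both times, with -0.13 at 12 h and -0.84 (SE 0.18, adjusted p by limma = 0.100) at 48 h. A named gene does not stand for its list. Positive and negative changes at 48 h numbered 4 and 3 among regulators and anchors, and 5 and 5 among kinases. They numbered 3 and 4 among scaffolds and transport factors.

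Of 10 tested other calcineurin substrates PPP1R1A, a phosphatase inhibitor, had -0.78 (SE 0.48) at 48 h and TFEB, a regulator of lysosomal genes, -0.16 at 12 h. NFAT5, the relative that responds to tonicity rather than calcineurin, had 0.25 (SE 0.08) at 12 h, and its target SLC6A6, the taurine transporter, -0.48 (SE 0.10, adjusted p by limma = 0.0978) at 48 h. SLC6A6 was the only negative one of the 4 tested genes of this list at 48 h, where 3 were positive (median 0.23). NFAT5 itself lay at 0.35 to 0.50 at 48 h over the alternatives. Of 14 tested genes of calcium stores and store-operated entry PLCG2, a phospholipase that makes the messenger releasing stored calcium, had the smallest p at both times, with 0.37 (SE 0.06, adjusted p by limma = 0.529) at 12 h and 1.66 (SE 0.23, adjusted p = 0.0662) at 48 h. Of 13 tested partner factors of NFAT FOSL1, an AP-1 subunit, had 1.16 (SE 0.16, adjusted p by limma = 0.0662) at 48 h and JUND, another AP-1 subunit, 0.19 at 12 h. Positive and negative changes at 48 h numbered 7 and 3 among the other substrates, and 7 and 7 among the calcium genes. They numbered 5 and 8 among the partner factors.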

How the data were processed

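Gene expression was measured on 12 Affymetrix arrays, 3 for each of 4 groups. The deposited values are log2 summaries per probe set; the submitters' processing notes name GCRMA, with no version. GCRMA pulls dim probe sets toward a floor, so changes near it are uncertain in size. No further normalization was applied. Probe sets were named from the platform annotation (41097 with 1 gene symbol, 1801 with several, 11777 with none). Those with 1 symbol and a log2 value above 4 on at least 3 arrays were tested, 20625 in all, control probe sets left out. Each CsA comparison was fitted in limma 3.58.1 (R 4.3.3) on the 6 arrays of its time, and time and the difference of effects on all 12 arrays. Tests were two-sided, with Benjamini-Hochberg adjustment over all tested probe sets and a threshold of 0.05. Intervals are 95% intervals of that fit, and the number of arrays limits their precision.

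Fits were tested on simulated data with 200 of 20625 probe sets changed, a number on which the share of false calls depends. There the fit within a time gave a lower share of false calls at 48 h than one with a spread shared by all arrays. It also recovered fewer of the true changes. Deviations of same-numbered arrays of CsA and control correlated at 0.39 to 0.55 at 12 h and at -0.15 to 0.31 at 48 h. Between both times they correlated at 0.12 to 0.30 for the controls and -0.07 to 0.19 for CsA. No correlation of differently numbered arrays is given beside these, so they cannot show whether the replicate numbers mark pairs. The main fits did not use the numbers. Named are all 10 genes; for each list the gene with the smallest p in each CsA comparison; and the 5 genes most and least like RCAN1 and like the other gene of the group with the smallest p at 48 h, by Pearson correlation of the brightest probe sets with a mean of at least 6. The genes and lists were chosen with earlier results of these data known.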

Additional observations from a re-analysis of the deposited data

How the results depend on the processing

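Over the alternatives no log2 change of a member reversed a call. At 12 h all 280 recomputed values kept their direction or stayed uncalled, and no setting called a member. At 48 h 5 of 299 became called: 3 with 1 spread shared by all 12 arrays and 2 with array weights, against 0 in the 48 h arrays. Over time 3 members passed, and 6 with weights for each group or for each array, 4 with a filter at 6, after centring or with a trend, 2 with no filter, and 2 to 4 without 1 array. Over all probe sets 7941 passed over time (38.5%), and 9004 with group weights and 9291 with array weights. It was 7667 with a filter at 6, 8036 after centring, 8040 with a trend, 6856 with no filter and 6295 to 7291 without 1 array. RCAN1 on 208370_s_at was called in all 15 alternatives, at 1.30 to 1.51 without 1 array. The count over all probe sets at 12 h was 0, 1 with the shared spread and 2 with group weights. At 48 h it was 8, and 2620 with the shared spread, 681 with group weights, 1998 with array weights, 0 with the replicate block, 1 with no filter, 82 with a filter at 6, 3 after centring again, 133 with a trend, 0 to 23 without 1 array and 0 without both replicate 1 arrays, a setting chosen after seeing the data. For the difference it was 66, and 25 with group weights, 1253 with array weights, 243 with the replicate block, 35 with no filter, 124 with a filter at 6, 24 after centring, 154 with a trend, 0 to 482 without 1 array and 4 without both replicate 1 arrays. By brightest probe set 2 genes were called at 48 h with the fit and adjustment over probe sets, and 123 with both over genes, or 88 with the mean of a gene's probe sets. For the difference these counts were 44, 125 and 102. The replicate block changed no call of a member in any comparison, with 0 members called at 12 h, at 48 h and for the difference and 3 over time. Centring moved the members by at most 0.042. The number of 3 arrays a group and dim signal limit all of these.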

Other observations

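The pathway genes around the group had calls over time in culture and none with CsA within a time. In controls from 12 h to 48 h, 11 of the 66 tested rose and 11 fell by limma, beside 23.4% and 19.7% of all genes by their brightest probe set; the genes named here were chosen after their values were seen. Among the AP-1 and MEF2 partners of NFAT, FOSL1 stood at -2.09 (log2 change, SE 0.19, adjusted p by limma = 2.2e-05) and FOSL2 at -0.94, while JUND stood at 0.96, MEF2A 0.67 and MEF2D 0.62. FOSL1 thus fell over time in controls, and its 48 h level was 7.20 in controls and 8.36 with CsA. Among calcium store genes ATP2A2, the pump that refills the endoplasmic reticulum, rose by 1.07 (SE 0.14), ORAI3, a plasma membrane calcium channel, by 0.88 and SARAF, which slows store-operated entry, by 0.76. STIM2, a sensor of store calcium, fell by 0.74 and ATP2B1, a plasma membrane calcium pump, by 0.65. NFAT kinases went both ways, with CSNK1D at 0.52 and CSNK1A1 at 0.51 against MAPK9 at -0.33, which was not called in 4 of 6 fits without 1 control array. NFAT5 rose by 0.37 and its target SLC5A3, the inositol transporter, by 0.53, while SLC6A6 fell by 0.68.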
